A study of Caenorhabditis elegans with 2 samples.

Results

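The 9 genes described here encode tubulins of Caenorhabditis elegans: the alpha-tubulin genes tba-1, tba-2, tba-4 and mec-12, the beta-tubulin genes tbb-1, tbb-2, tbb-4 and mec-7, and the gamma-tubulin gene tbg-1. They are 9 of 19973 annotated protein-coding genes on the nuclear chromosomes, and all 9 were found in the annotation. The study located the ZK546.5 protein on the genome by chromatin immunoprecipitation and sequencing (ChIP-seq) in whole L4 larvae of mixed sex, animals in the stage before adulthood. It holds 1 group of 2 biological replicates from strain OP231, which carries the mutation unc-119(ed3) and the integrated transgene wgIs231, a copy of ZK546.5 that ends in a GFP and FLAG tag. Both replicates are of this genotype and stage, no animals without the tagged protein are part of the group, and the control library used by the authors was not analysed here. What was measured is therefore binding of the transgenic, tagged protein in whole animals, and the depth of the libraries is unknown.

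The genes were chosen by family, and with earlier results of these data known: the high signal at tba-2 was part of the reason for the choice. The rule then takes, for each gene, the region with the highest signal value among those whose summit lies within 1000 bp of the annotated gene start. It is applied to the lists that the authors deposited for both replicates pooled, for replicate 1 and for replicate 2, and to their IDR set, the regions that passed a threshold on how far the replicates rank the same regions highly (irreproducible discovery rate). The pooled list and each replicate list hold 30000 regions, peaks and background together, and the IDR set holds 92. Signal values come from the authors' peak caller on an unstated scale that differs between lists, so ranks (1 is the highest) are given beside them. The values at the genes were used by the rule and are given as a description, with no test.

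Tubulins are the subunits of microtubules. Alpha and beta tubulin pair into dimers that polymerise into the hollow filaments of the mitotic spindle, of axons and of cilia, and gamma tubulin nucleates new microtubules. The worm makes several isotypes of alpha and beta tubulin from separate genes. Of those described here tba-1, tba-2, tbb-1 and tbb-2 serve most tissues and the early embryo, and tba-4 is also broadly expressed. mec-12 and mec-7 encode the alpha and beta tubulin of the large microtubules of the touch receptor neurons, and tbb-4 encodes a beta tubulin of ciliated sensory neurons. Expression was not measured here, and these classes are background.

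tba-2 was the member with a strong peak in every list. Its signal value was 662 in the pooled list, 405 in replicate 1 and 265 in replicate 2, and it ranked 2 in each of the 3 lists and 2 among the 92 IDR regions. Both replicates thus placed it at the same rank, and the pooled value was 51.9 times the median of the pooled list, 12.7. The region lies on chromosome I from 12966741 to 12967096 (ce11), is 356 bp wide where 300 bp is the usual width of the pooled list, and its summit is 143 bp upstream of the annotated start. The summits of the replicates lay 135 bp and 152 bp upstream, 17 bp apart, and the replicate regions shared 266 bp.

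The summit of tba-2 (WBGene00006529, chromosome I from 12964674 to 12966795, minus strand) falls in intergenic sequence. The last 55 bp of the region reach into the first annotated exon, which is 181 bp long and untranslated. After an intron of 343 bp follows a second annotated start, that of a shorter transcript, 667 bp from the summit. Upstream lies pbs-2, a gene of the proteasome on the same strand, whose end is 278 bp and whose start is 1342 bp from the summit. No start of another annotated gene, piRNA genes aside, lay within 1000 bp of the tba-2 summit. Of the 73 nuclear IDR summits, 54 had a protein-coding start within 1000 bp, at a median distance of 227 bp, and 14 of them lay closer to a start than 143 bp.

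No other region near tba-2 came close to it in signal. Within 5 kb of the tba-2 start the pooled list had 8 regions, against 2.99 expected from their number and the length of the genome. That number was not particular to tba-2: the other members had from 1, at tba-4 and tbb-4, to 9, at mec-12. The next highest of the 8 at tba-2 had a signal value of 27.3 at rank 208, 1726 bp upstream, and the tba-2 peak was 24.2 times as high. The rest lay between 10.2 and 20.04. Inside the gene, 898 bp downstream of the start in a coding exon, a region of signal 10.2 ranked 27565, close to the lowest value of the list, 9.83. The nearest other IDR summit was 314.6 kb away.

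**Figure D1:**
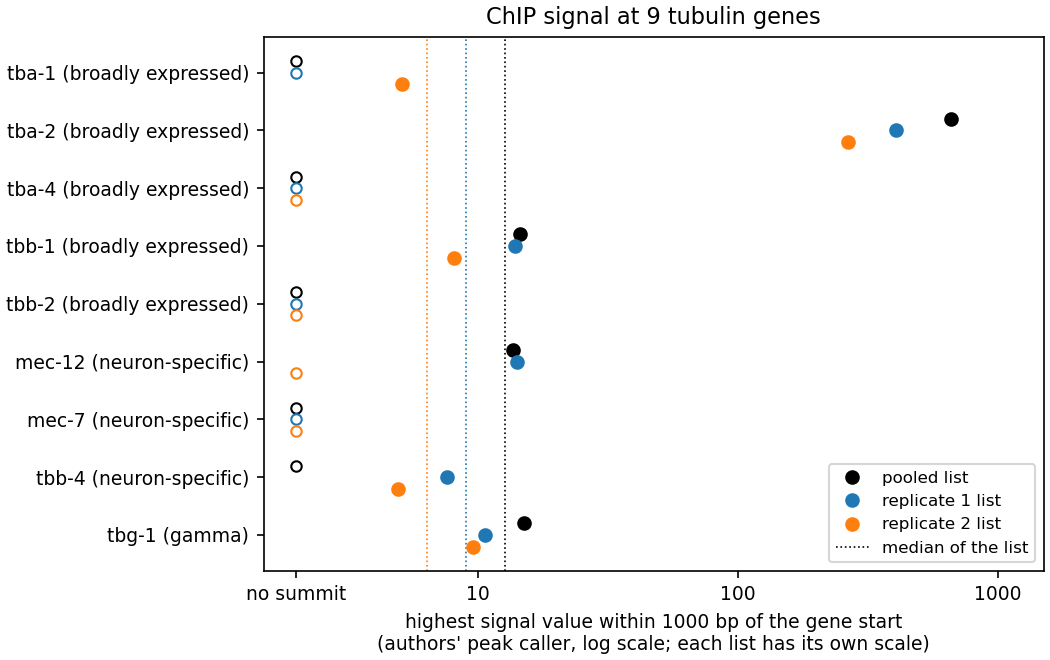
Highest signal value within 1000 bp of each gene start (x axis, log scale, set by the authors' peak caller, each list on its own scale) for 9 tubulin genes (y axis), with filled points for the pooled list, replicate 1 and replicate 2, open points where the list had no summit there and dotted lines at the medians of the lists. tba-2, at 662, 405 and 265, stands apart from the other genes, whose values lie between 4.91 and 14.97.

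The other broadly expressed alpha-tubulin genes had no such peak. tba-1, which encodes the other alpha tubulin of the early embryo, had no summit within 1000 bp in the pooled list or in replicate 1, and in replicate 2 a region of signal value 5.09 at rank 25125, 99 bp downstream of the start. That value is 0.797 times the median of the replicate 2 list, 6.39. Just outside the window, 1176 bp upstream of tba-1, a pooled region of signal 19.4 ranked 2065. In replicate 1 a region there had 14.6 at rank 1742, and in replicate 2 one of 4.85 ranked 27413. The summit lies in an untranslated exon of cox-5B, a gene of cytochrome c oxidase, which is transcribed away from tba-1 and starts 1101 bp from it. tba-4 had no summit within 1000 bp in any of the lists, and its nearest pooled region was 3780 bp upstream, with a signal of 14.7.

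mec-12, the alpha tubulin of the touch receptor neurons and the one worm alpha tubulin with the lysine that is acetylated in stable microtubules, had a pooled signal value of 13.7 at rank 11681. In replicate 1 it was 14.1 at rank 2096, and in replicate 2 no summit lay within 1000 bp. The replicates thus did not list the same region. The pooled and the replicate 1 summit were both 175 bp downstream of the start, in an intron, and a second pooled region of 13.2 at rank 13143 lay 901 bp upstream. The pooled value was 1.07 times the median of its list, and of the 9798 protein-coding genes with a pooled summit 46.02% had a higher value.

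Among the beta-tubulin genes, tbb-1 had a pooled signal value of 14.5 at rank 9380, 314 bp upstream of its start. In replicate 1 the value was 13.9 at rank 2359, 313 bp upstream, and in replicate 2 it was 8.06 at rank 7132, 97 bp downstream. The replicate regions did not overlap: their ends were 102 bp apart. The pooled summit lies between tbb-1 and rib-2, a gene of heparan sulphate synthesis that is transcribed in the other direction from a start 378 bp away, and it is nearer to rib-2, at 64 bp. The signal there cannot be assigned to either gene.

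tbb-2, the other broadly expressed beta tubulin, had no summit within 1000 bp in any list. The nearest pooled region was 1873 bp downstream of its start, with a signal of 19.4 at rank 2057, in the 3′ untranslated exon of the neighbouring gene C36E8.4. In the replicates the regions there had 7.88 at rank 21324 and 7.37 at rank 9758. tbb-4 had no pooled summit within 1000 bp. In replicate 1 a region of signal value 7.60 ranked 23187, 955 bp downstream, and in replicate 2 one of 4.91 ranked 26838, 608 bp downstream. Both were below the medians of their lists, 8.98 and 6.39, and they did not overlap. Nearest to the limit of 1000 bp were thus this replicate 1 summit of tbb-4, at 955 bp, on the inside and the replicate 2 summit of 4.85 beside tba-1, at 1163 bp, on the outside.

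mec-7, the beta tubulin that pairs with mec-12 in touch receptor neurons, had no summit within 1000 bp in any list. Its nearest pooled region was 2818 bp upstream, with a signal of 12.3 at rank 16749. tbg-1, the gamma-tubulin gene, had a pooled signal value of 14.97 at rank 8097, 210 bp downstream of its start in an intron. In replicate 1 the value was 10.6 at rank 8344, 28 bp downstream, and in replicate 2 it was 9.58 at rank 3406, 190 bp downstream. A second pooled region, of signal 10.04 at rank 28729, lay 11 bp downstream, close to the lowest value of the list, 9.83. The replicate regions shared 146 bp, and besides tba-2 this was the member whose regions overlapped between the replicates. The replicate summits were 162 bp apart, however. That of replicate 1 was nearer to the second pooled summit, and that of replicate 2 to the one at 210 bp.

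The tbg-1 start is 92 bp downstream of the end of rpac-19, an RNA polymerase subunit gene on the same strand. The start of rpac-19 is 941 bp from the higher pooled tbg-1 summit. Farther upstream, 2369 bp from the tbg-1 start and in intergenic sequence, a pooled region of signal 27.2 ranked 212. In replicate 1 a region there had a value of 12.6 at rank 4001, and in replicate 2 one of 16.5 at rank 141. It is the highest region within 5 kb of any of the 8 members other than tba-2, and it lies outside the distance that the rule sets.

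**Figure D2:**
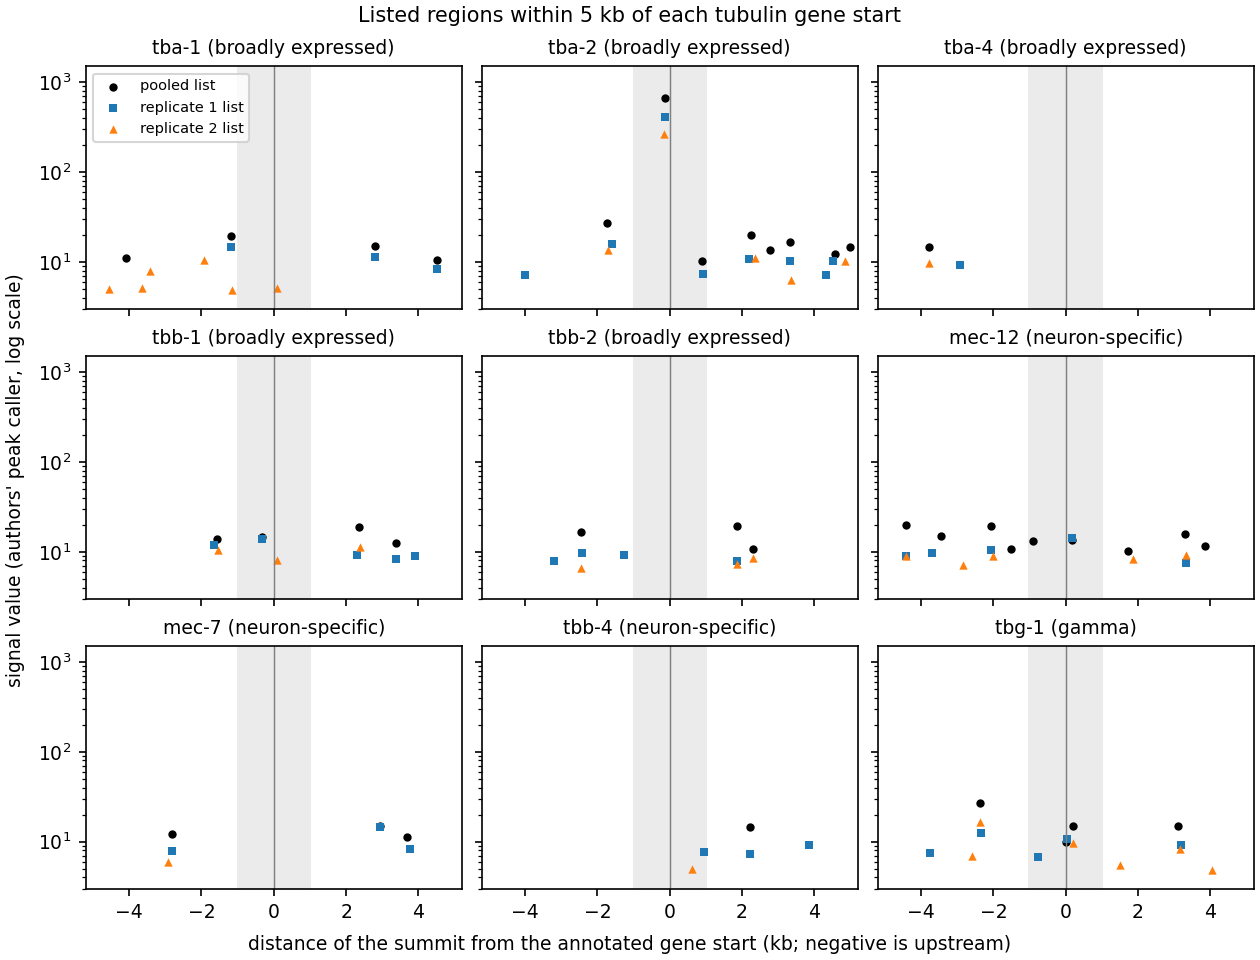
Signal value (y axis, log scale) against distance of the summit from the annotated gene start (x axis, kb, negative upstream) for every listed region within 5 kb of the 9 genes. Circles are the pooled list, squares replicate 1 and triangles replicate 2, and grey marks 1000 bp on either side of the start. In the tba-2 panel the peak stands at 662, 405 and 265, and the highest value in the other panels is 27.2, at tbg-1.

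The sequences under these summits are shown to let the weak regions at tubulin genes be read beside a strong peak with the word described further on. They are from the ce11 assembly, 121 bases on the plus strand, with the summit of the pooled list at base 61. Capitals mark CCTGCACA, its shorter form CCTGCA, the separate word ACCGTA, and finally the word ATCTAA, on either strand, which in this window of pfd-1 overlap in part. The pfd-1 window (chrIV:11149741-11149861) is included because pfd-1, a prefoldin gene whose protein complex hands new tubulin to the cytosolic chaperonin, lies beside a strong IDR peak. The others are tbb-1 (chrIII:10742686-10742806), mec-12 (chrIII:3138999-3139119) and tbg-1 (chrIII:9628884-9629004).
pfd-1: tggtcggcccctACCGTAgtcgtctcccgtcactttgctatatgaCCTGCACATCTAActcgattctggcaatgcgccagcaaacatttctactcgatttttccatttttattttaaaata
tbb-1: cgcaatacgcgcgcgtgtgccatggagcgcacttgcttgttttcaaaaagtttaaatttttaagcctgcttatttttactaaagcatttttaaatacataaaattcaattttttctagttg
mec-12: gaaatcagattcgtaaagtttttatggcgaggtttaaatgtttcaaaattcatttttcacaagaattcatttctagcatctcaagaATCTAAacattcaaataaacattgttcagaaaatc
tbg-1: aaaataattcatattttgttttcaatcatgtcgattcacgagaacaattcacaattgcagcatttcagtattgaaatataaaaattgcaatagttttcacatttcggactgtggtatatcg

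For the 3 members with no summit within 1000 bp in any list, the 120 bases before the annotated start and the start itself (base 121, on the strand of the gene) are shown, as the sequence next to the start. The tba-2 summit, at 143 bp, would lie just beyond such a window. They are tba-4 (chrII:10918586-10918706, plus strand), tbb-2 (chrIII:4017627-4017747, minus strand) and mec-7 (chrX:7776689-7776809, minus strand), with capitals as above.
tba-4: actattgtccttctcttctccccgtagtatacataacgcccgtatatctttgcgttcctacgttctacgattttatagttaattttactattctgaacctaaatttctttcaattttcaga
tbb-2: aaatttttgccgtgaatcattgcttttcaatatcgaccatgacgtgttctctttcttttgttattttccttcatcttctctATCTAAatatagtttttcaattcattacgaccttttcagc
mec-7: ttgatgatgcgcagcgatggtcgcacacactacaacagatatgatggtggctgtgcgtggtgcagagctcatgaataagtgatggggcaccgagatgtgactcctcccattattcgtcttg

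The tba-4 and tbb-2 windows end in TTTCAG before the annotated start, the bases of a worm splice acceptor. So did 4 of the 9 members, the others being tbb-1 and tbb-4, and 12.3% of all protein-coding genes. Worm messages often receive a spliced leader at such a site, and the annotated start is then the end of the spliced message and not the place where transcription begins. For these 4 genes the distance of a region from the transcription start is unknown. tba-2 and tba-1 lacked TTTCAG at their annotated starts, as did mec-12, mec-7 and tbg-1. At tbg-1 the bases before the start did end in AG, the last bases of that word. In all 5 of the 9 members had AG there, as did 27.6% of all protein-coding genes. Lack of TTTCAG does not show that transcription begins at the annotated start.

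Counted over the family, 1 of 9 genes had an IDR summit within 1000 bp of its start. Among all protein-coding genes 0.466% did (93 of 19973). This count rests on tba-2, whose peak was known when the genes were chosen, so nothing is read from the difference. Of the 9 genes 4 had a pooled summit there (44.4%), which is close to the 49.1% of all protein-coding genes. In both replicate lists 4 of the 9 had a summit (44.4%), against 27.2% of all protein-coding genes, but for tbb-1 and tbb-4 the replicate regions were different ones. In 3 of the 9, tba-4, tbb-2 and mec-7, none of the lists had a summit there. The share of all protein-coding genes without a summit in any list was not computed, so nothing is read from this count.

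Set side by side, the broadly expressed and the neuron-specific genes did not separate apart from tba-2. Of the 5 broadly expressed genes 2 had a pooled summit, tba-2 at 662 and tbb-1 at 14.5. Of the 3 neuron-specific genes 1 did, mec-12 at 13.7, and of all protein-coding genes 49.1% did. mec-7 and tbb-4 lie on chromosome X, and mec-12 and the broadly expressed genes on other chromosomes. Class and chromosome can thus not be fully told apart. The values of tbb-1 and mec-12 are neighbours in the order of levels, with tbg-1 at 14.97 above them, and the replicates ordered these 3 genes differently: mec-12, tbb-1 and tbg-1 ranked 2096, 2359 and 8344 in replicate 1, and in replicate 2 tbg-1 ranked 3406, tbb-1 7132 and mec-12 had no summit. The order of the genes below tba-2 is therefore not larger than the difference between the replicates. In whole larvae, binding in few cells and weak binding in many cannot be told apart, which bears on the neuron-specific genes in particular. No test of the classes was made, because genes are not replicates and tba-2 was known beforehand.

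Of the further alpha- and beta-tubulin genes 6 were looked at, which is not the whole of the remaining family. None of these 6 had an IDR summit within 1000 bp, against 0.466% of all protein-coding genes, so nothing is read from this. Of the 6, 1 had a pooled summit there (16.7%, against 49.1% of all protein-coding genes), and no test was made. tba-7 had a pooled signal value of 17.5 at rank 3793, 494 bp upstream of its start, and 15.97 at rank 966 in replicate 1, but no summit within 1000 bp in replicate 2. tba-6 had no summit but in replicate 2, of 7.41 at rank 9576 and 959 bp upstream. tba-5, tba-8, tba-9 and tbb-6 had none within 1000 bp in any list, and the share of all protein-coding genes without one was not computed.

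Similar sequence between the tubulin genes could keep reads from being placed. Within 1000 bp of the starts, 98.1% to 100% of all stretches of 36 bases occurred once in the genome in each of the 9 genes, with the lowest share at tbb-2 and 99.3% at tba-4. With stretches of 50 bases the lowest share was 99.6%, at tbb-2. Read lengths were not stated, and whether reads failed to be placed at these genes was not tested.

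The 8-base word CCTGCACA lies at the tba-2 summit. Earlier results of these data had picked it for being frequent at IDR peaks, so its presence there is a description. On the minus strand of the genome, on which tba-2 is read, the word does not occur near the summit; it occurs on the other strand, with its leftmost base 1 bp from the summit of the pooled list and 9 bp and 8 bp from those of replicates 1 and 2. It covers the bases 144 to 151 bp upstream of the annotated start. No other copy lay within 1000 bp of the start of any of the other 8 members or of the 6 further tubulin genes looked at.

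In the 300 bases from 250 before to 50 after the annotated start, the word was in 1 of 9 members, against 0.436% of all protein-coding promoters (87 of 19973). Of the 73 nuclear IDR summits 15 (20.5%) had it within 150 bp, against 0.404% of all 29979 nuclear regions of the pooled list. The word was picked for being frequent at these IDR peaks, so nothing is read from that difference. In those 15 peaks the leftmost base of the word on the plus strand was a median of 10 bp from the summit, and between 1 and 41 bp. The nuclear chromosomes hold 1344 copies, most of which are not at IDR peaks. The shorter CCTGCA, which is part of it, was in the promoter of tba-2 and of no other member (6.37% of all promoters). ACCGTA was in 0 of the 9 member promoters and in 8.11% of all promoters. ATCTAA was in those of tba-2, where it overlaps the longer word, and of tbb-2, which has no listed region within 1000 bp (14.9% of all promoters).

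**Figure D3:**
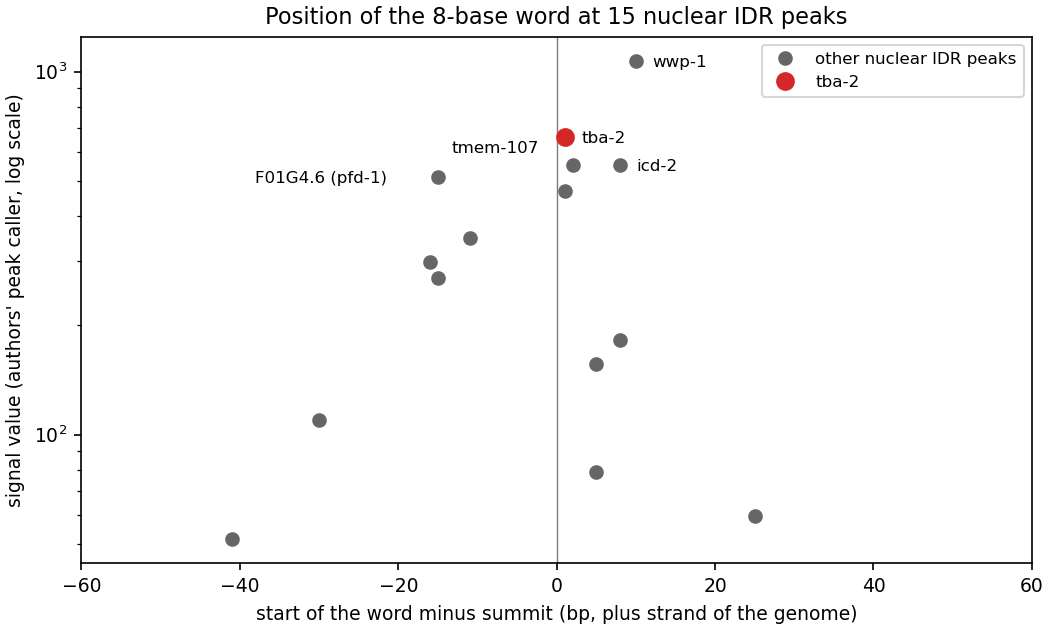
Signal value in the IDR set (y axis, log scale) against the position of the leftmost base of CCTGCACA relative to the summit (x axis, bp, on the plus strand of the genome) at the 15 nuclear IDR peaks with the word within 150 bp (red, tba-2; grey, the others, of which 4 are named by the nearest protein-coding gene). The tba-2 point lies 1 bp from its summit, and all 15 lie within 41 bp.

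The protein-coding genes most like tba-2 in rank over the pooled, replicate 1 and replicate 2 lists were sqd-1, wwp-1, icd-2 and tmem-107. The measure is the sum of the differences in log10 rank over the 3 lists, among 4045 genes with separate summits. sqd-1, an RNA-binding protein gene, ranked 3, 5 and 3 (sum 0.750). wwp-1, a ubiquitin ligase gene, ranked 1 in each (0.903), icd-2, of the nascent polypeptide-associated complex, ranked 4, 3 and 8 (1.08), and tmem-107, of the ciliary transition zone, ranked 5, 4 and 6 (1.18). Of these 4, wwp-1, icd-2 and tmem-107 have CCTGCACA within 150 bp of the summit, as tba-2 does, and sqd-1 lacks it. Between replicate 1 and replicate 2 the ratio of signal values was 1.53 at tba-2, near the median of 1.47 over 71 nuclear IDR peaks listed in both, where it ran from 0.655 to 5.27.

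Lists of genes that act on tubulin are given as counts, with no test. Of the 20 genes of the chaperonin, of prefoldin and of the tubulin cofactors, 2 had an IDR summit within 1000 bp (against 0.466% of all protein-coding genes), pfd-1 and cct-8, and 14 had a pooled summit (70.0%, against 49.1%). Both IDR genes were known from earlier results when the list was written, and the rest of the list lacked an IDR summit. The median pooled signal of the 14 was 14.4, against 13.4 over all protein-coding genes with a pooled summit. pfd-1 had signal values of 513, 296 and 227 in the pooled, replicate 1 and replicate 2 lists, at ranks 7, 7 and 4. The summit lies 312 bp upstream of pfd-1 and 297 bp from the start of F01G4.6, which is transcribed in the other direction, so the peak cannot be assigned to pfd-1 alone.

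cct-8, a subunit gene of the chaperonin that folds tubulin and actin, had values of 40.9, 24.3 and 16.3 at ranks 80, 103 and 144, with the pooled summit 388 bp upstream of its start and none of the 4 words within 60 bp of it. Next came tbcc-1, a gene of the tubulin cofactors, which is not in the IDR set. Its values were 29.1, 19.5 and 4.71 at ranks 150, 244 and 28896, so replicate 2 did not rank it highly. cct-1, named here after its values were seen, had 25.9 at rank 303 in the pooled list and 20.4 at rank 76 in replicate 2, but no summit within 1000 bp in replicate 1.

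**Figure D4:**
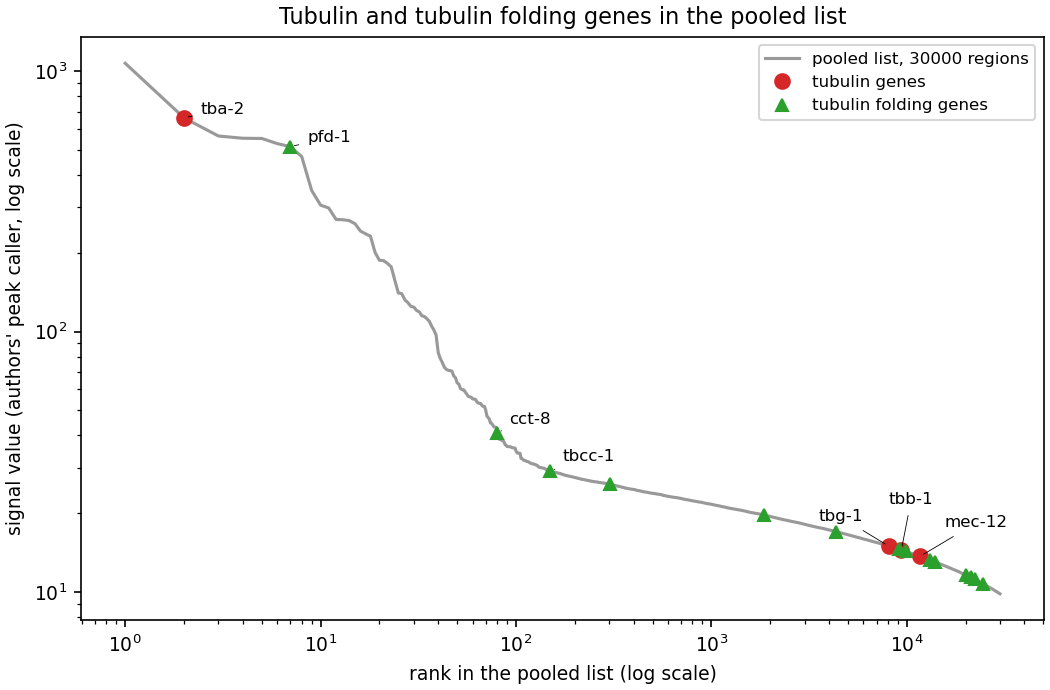
Signal value (y axis, log scale) against rank (x axis, log scale) over the 30000 regions of the pooled list (grey line), with the highest region within 1000 bp of the start of the tubulin genes (circles) and tubulin folding genes (triangles). tba-2 at rank 2 and pfd-1 at rank 7 lie at the high end of the curve. tbg-1, tbb-1 and mec-12 at ranks 8097, 9380 and 11681 lie far below them, slightly above the list median of 12.7.

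The remaining lists had 0 genes with an IDR summit. Of 14 genes of the gamma-tubulin complex and the microtubule organising centre, 5 had a pooled summit (35.7%), led by the centriole genes sas-6 at 14.6 and sas-5 at 13.7 and, between them, by gip-2, which encodes a partner of gamma tubulin, at 14.1. Of 11 genes of tubulin-modifying enzymes 6 did (54.5%), and the highest was mec-17, the acetyltransferase of mec-12, at 17.7 and rank 3422, followed by ttll-11 at 14.2 and ccpp-6 at 13.7. Of 31 genes of microtubule-binding proteins and motors 13 did (41.9%), led by cls-2, a CLASP gene, at 22.1, unc-104, the kinesin of synaptic vesicle transport, at 21.8, and the katanin gene mei-1 at 17.3. Of 9 touch receptor neuron genes 3 did (33.3%): mec-17 again, mec-18 at 12.7 and the homeobox gene unc-86 at 12.1. These shares lie on both sides of the 49.1% over all protein-coding genes. The values are from the pooled list, and the replicates differed. Within 1000 bp gip-2 had no summit in either replicate. mec-17, ttll-11 and sas-6 had one in replicate 1 only, that of mec-17 659 bp downstream, against 219 bp upstream in the pooled list. sas-5 and mec-18 had one in replicate 2 only. cls-2, unc-104, mei-1, ccpp-6 and unc-86 had one in both, not always at the same place.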

How the data were processed

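ChIP-seq libraries of 2 replicates of 1 group were analysed from the authors' deposited region lists on ce11. Per the deposited README text, the replicate and pooled lists hold peaks and background made from ChIP alignments with a control alignment, and were the input for IDR. Aligner, caller, IDR cutoff and versions were not given in the sources used here, nor was read length. The deposited signal values (column 7) are the authors', on an unstated scale; they rank and describe regions within a list. No read counts were available, so depth and its error are unknown. The ce10 lists were not used.

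Regions were matched to gene starts of Ensembl release 115 (WBcel235, the assembly of ce11) by summits within 1000 bp, with Python 3.11.15 and pandas 2.3.3; sequences came from RefSeq's copy of WBcel235. Matching was tested on simulated data. Members, lists and words were chosen with earlier results of these data known. Named were the members, 6 further tubulin genes (not the whole remaining family), list genes with an IDR summit or among the 3 highest pooled values, genes starting within 1000 bp of a member's summit and the 4 genes most like tba-2 in rank. No comparison between groups is possible, and no test was made. The alternatives were other windows, starts and list lengths, regions in place of summits, and each replicate alone.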

Additional observations from a re-analysis of the deposited data

How the results depend on the processing

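The IDR count of 1 gene, tba-2, was the same under all 7 alternatives, but it could hardly change. The tba-2 summit is 143 bp from the start at rank 2. The nearest IDR summit to any other member was 28949 bp away, at tbb-4. An IDR set needs both replicates, so the alternatives with 1 replicate alone do not test this count. The pooled signal values of tba-2, tbb-1, mec-12 and tbg-1 were the same under all 4 alternatives run for them. For the counts and these 4 genes there were 51 alternative values, of which 3 differed by more than 1.5 times. The 51 include the 7 of the IDR count. Members without a pooled summit within 1000 bp had no value to compare and are not among the 51. With summits up to 2000 bp from the start, 7 genes in place of 4 had a summit in both replicate lists. In the pooled list 4 broadly expressed genes in place of 2 then had one, since the regions of signal 19.4 beside tba-1 and tbb-2 counted. A wider window takes in more regions at any gene. The shares of all protein-coding genes at 2000 bp were not computed, so nothing is read from these rises. Without 1 replicate in turn, the neuron-specific genes with a summit numbered 1 to 2 (1 in the pooled list, mec-12): tbb-4 in replicate 2 alone, and mec-12 and tbb-4 in replicate 1 alone. No paired analysis was possible because the study has 1 group. The unknown depth limits what can be said of regions near the lower end of the lists, such as those at tba-1 and tbb-4. It also limits what can be said of tba-4, tbb-2 and mec-7, which had none within 1000 bp. The absence of a listed region does not show absence of binding.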
